A study of Mus musculus with 13 samples.

Results

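The G1 cyclins, their cyclin-dependent kinases (CDKs) and the main CDK inhibitors were followed as a group of 10 genes, taken by symbol from the gene tables of ribosome footprints. They were the D-type cyclins Ccnd1, Ccnd2 and Ccnd3, the E-type cyclins Ccne1 and Ccne2, the kinases Cdk2, Cdk4 and Cdk6, and the inhibitors Cdkn1a (p21) and Cdkn1b (p27), out of 22406 symbols in all. All 10 symbols were found, and all 10 passed the limit on low values, a mean of at least 2 TPM (transcript levels scaled to length and to the library), in both tables. That limit kept 10432 genes in mouse embryonic fibroblasts (MEFs) and 10117 in NIH3T3 cells. The member with the fewest reads in any library, Cdk6, had 33 expected counts there.

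The study asked how the endoplasmic reticulum (ER) stress response depends on PERK, the ER stress sensor encoded by Eif2ak3 that phosphorylates eIF2α. Ribosome footprint profiling, the sequencing of the mRNA pieces covered by ribosomes, was done without cycloheximide in PERK WT MEFs and in MEFs knocked out for PERK (PERK -/-). Both genotypes were left untreated (control) or treated with 1 µM thapsigargin (Tg), which empties the ER of calcium, for 1, 2, 5 or 8 h. NIH3T3 cells, an established mouse fibroblast line that is WT at PERK by its label, were untreated or treated with 200 nM Tg for 2 or 7 h. With a single library for every one of the 13 conditions, differences have no replicate check, and conditions were compared without a test. Each genotype was 1 MEF line as far as the labels tell, so that the genotype and the line cannot be told apart, and the times of a genotype share 1 control library.

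Progress through G1 is driven by D-type cyclins, which are made in response to mitogens and bind Cdk4 or Cdk6. Together with E-type cyclins bound to Cdk2 they phosphorylate the retinoblastoma protein Rb, which releases E2F transcription factors and commits the cell to S phase. Cdkn1a and Cdkn1b bind these complexes and hold back Cdk2, and cyclin D1 is a short-lived protein known for its loss when translation is reduced under ER stress.

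Since the members come in families of related sequence, the stretches where footprints could be confused were searched for in the coding sequences of the GENCODE annotation (GRCm38). The authors kept footprints of 22 to 34 nt and clipped coding sequences by 30 nt at each end. In the clipped sequences, 0 of the 45 pairs of members shared a run of 22 nt, and the longest run shared by any pair was 20 nt. Only exact runs were searched for, so the confusion of footprints that align with a mismatch was not examined. The window around the longest run of Ccnd1 and Ccnd2 is shown with the best ungapped match of Ccnd3, since the balance of these 3 genes is described further on. Capitals mark the 39 of 68 bases that are the same in all 3. The windows lie on the coding strand at chr7:144939518-144939585 (Ccnd1, minus strand), chr6:127150604-127150671 (Ccnd2, minus strand) and chr17:47593763-47593830 (Ccnd3, plus strand), each within 1 coding exon.
Ccnd1: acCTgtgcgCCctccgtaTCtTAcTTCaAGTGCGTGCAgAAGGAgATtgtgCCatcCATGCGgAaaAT
Ccnd2: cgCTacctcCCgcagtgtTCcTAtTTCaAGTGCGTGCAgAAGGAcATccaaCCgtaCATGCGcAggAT
Ccnd3: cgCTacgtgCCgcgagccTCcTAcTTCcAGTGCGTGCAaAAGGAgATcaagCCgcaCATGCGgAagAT

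The E-type cyclins shared runs of up to 18 nt. The window around the longest run, 66 nt with 52 bases in common (capitals), crosses an exon junction. It lies between 38099852 and 38100587 of chromosome 7 (Ccne1, minus strand) and between 11197267 and 11198761 of chromosome 4 (Ccne2, plus strand).
Ccne1: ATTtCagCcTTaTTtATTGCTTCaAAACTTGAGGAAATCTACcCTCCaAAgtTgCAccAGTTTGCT
Ccne2: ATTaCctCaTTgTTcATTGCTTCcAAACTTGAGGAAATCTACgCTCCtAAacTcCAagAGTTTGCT

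The kinases Cdk4 and Cdk6 shared a run of 20 nt, and the window around it has 50 of 68 bases in common (capitals), within 1 coding exon each, at chr10:127064919-127064986 and chr5:3429075-3429142 (both plus strand).
Cdk4: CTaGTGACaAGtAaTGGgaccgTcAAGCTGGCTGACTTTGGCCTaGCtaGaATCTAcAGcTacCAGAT
Cdk6: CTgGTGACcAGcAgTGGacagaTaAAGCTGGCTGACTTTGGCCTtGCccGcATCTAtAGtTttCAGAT
Copies elsewhere in the genome, such as pseudogenes, were not searched for.

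The libraries held 2525029 (WT, 2 h) to 14799515 (PERK -/-, 2 h) expected counts. The target of the knockout, Eif2ak3, had 254 of 11949174 counts in the WT control and 74 of 6735073 in the PERK -/- control, although its TPM was 6.03 and 11.2, so the length-scaled values and the counts went opposite ways for this gene, and the sources used here do not say which exons were removed. Atf4, whose translation PERK signalling raises, went from 34.5 TPM to between 487 and 576 in Tg-treated WT MEFs and from 41.4 to between 25.1 and 60.2 TPM in PERK -/- MEFs. The stress genes Ddit3 (CHOP) and Hspa5 (BiP) were 42.0-fold higher in WT MEFs at 8 h and 6.15-fold higher in NIH3T3 cells at 7 h. Of 10 fibroblast markers, 8 had a mean of at least 2 TPM in WT MEFs, 9 in PERK -/- MEFs and 8 in NIH3T3 cells. Of the defining ones, Fap was at most 1.16 TPM in all libraries, Pdgfra was at 0.27 TPM in the WT control, and Col3a1 did not pass 1.67 TPM in NIH3T3 cells. The summed level of 4 epithelial markers was 5.16 to 17.7 TPM over all libraries, mostly Krt18 in WT MEFs and Krt8 in NIH3T3 cells, and those of 3 blood and 3 endothelial markers were at most 4.49 and 5.14 TPM. A footprint level holds both the amount of an mRNA and the ribosomes on it, and in a bulk sample fewer cells in a given phase and less footprint per cell cannot be told apart. TPM is also a share of the library, so that a global loss of translation is not seen in it.

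Before treatment, Cdk4 was the most highly read member in all 3 cell types, at 577 TPM in WT MEFs, 738 in PERK -/- MEFs and 299.8 in NIH3T3 cells, and was above 96.9% of the expressed genes in WT MEFs. Cdk6, the other partner of D-type cyclins, was at 20.3, 18.8 and 30.03 TPM. In the controls the 2 MEF lines differed most in Ccnd1, at 163 TPM in WT and 60.1 TPM in PERK -/- MEFs, 2.72-fold lower. The interval of the counting error, given here and below as the 95% exact (Clopper-Pearson) interval of the log2 ratio of counts per library total, ran from -1.62 to -1.28. These intervals cover counting error only, and reads without molecular identifiers are not independent molecules. Ccnd1 was the 1 member at least 2-fold lower, among 1.97% of the 10432 expressed genes, and 0 members were at least 2-fold higher, where 6.04% of the genes were. Cdkn1b was next, at 36.8 TPM in the WT control and 57.5 TPM in the PERK -/- control (log2 0.64, interval 0.37 to 0.91). The intervals of Ccne1, Cdk6 and Cdkn1a contained 0. NIH3T3 cells were higher in Cdkn1a, with 282 TPM against 50.3 and 59.9 TPM in the 2 MEF controls, and in Ccnd2, with 272 TPM against 110.4 and 77.7 TPM. Other members differed as well, such as Ccne1 at 49.9 against 23.98 and 22 TPM and Ccne2 at 20.8 against 55.55 and 47.2 TPM. No interval and no share of all genes was computed for NIH3T3 cells against MEFs.

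**Figure D1:**
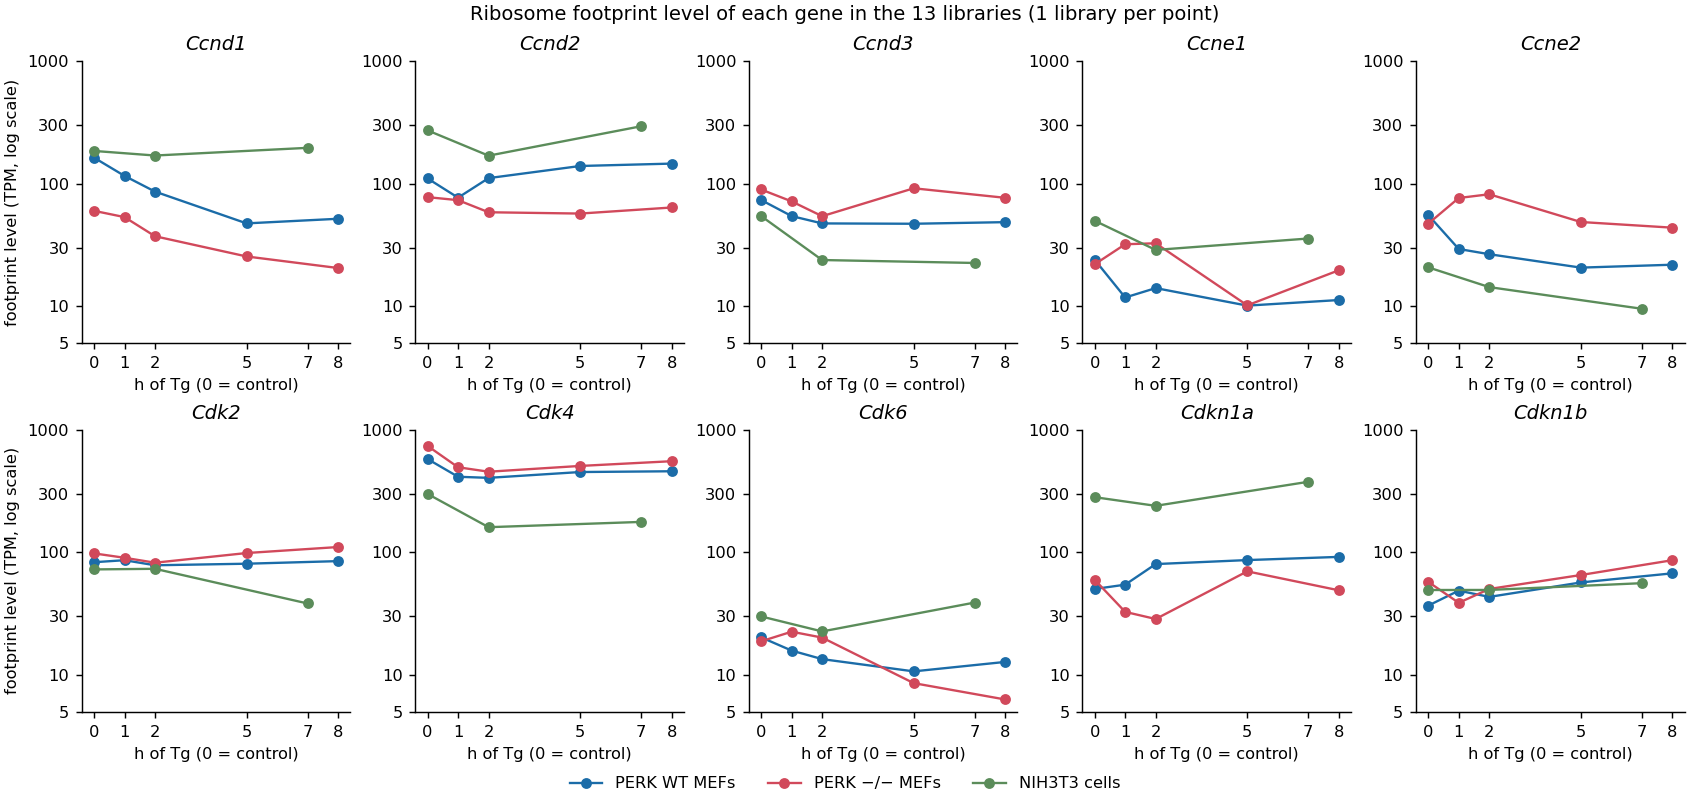
Ribosome footprint level (TPM, log axis) of each of the 10 genes against hours of Tg, with the untreated control at 0 h, for PERK WT MEFs (blue), PERK -/- MEFs (red) and NIH3T3 cells (green); each point is 1 library. Ccnd1 goes from 163 TPM to 51.8 in WT and from 60.1 to 20.5 in PERK -/- MEFs by 8 h, while the NIH3T3 points stay between 169.7 and 196.

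Changes were taken as log2 ratios of a Tg library to its own control after TPM values under 4 were raised to 4, the scale of the study's analysis; no TPM of the 10 genes was under 4. Ccnd1, which links mitogen signalling to Cdk4 and Cdk6, had a lower level than its control at every time in both MEF lines, although the PERK -/- change at 1 h was within counting error (count interval -0.34 to 0.06). Its levels in WT MEFs were 163 TPM in the control, 116 after 1 h, 86.2 after 2 h, 47.5 after 5 h and 51.8 after 8 h. The PERK -/- levels were 60.1, 53.4, 37.3, 25.5 and 20.5 TPM. The WT values at 5 and 8 h were thus under the untreated PERK -/- level, and the order of the times was the same in both lines except for 5 and 8 h in WT, which did not differ beyond counting error (interval -0.11 to 0.35). The log2 change reached -1.78 after 5 h in WT (interval -1.98 to -1.58) and -1.55 after 8 h in PERK -/- MEFs (-1.86 to -1.26), and only 0.374% and 0.729% of expressed genes had a lower value there. The difference between the genotypes (PERK -/- minus WT) was 0.32 after 1 h, 0.23 after 2 h and 0.54 after 5 h, with count intervals above 0, and 0.11 after 8 h, with an interval from -0.23 to 0.42 around 0.

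NIH3T3 cells differed from both MEF lines here. Ccnd1 was at 185 TPM in the control, 169.7 after 2 h and 196 after 7 h, with log2 changes of -0.12 and 0.08 whose count intervals (-0.16 to 0.14 and -0.03 to 0.19) contained 0. The Tg dose, the times and the cell line all differed from those of the MEFs and cannot be told apart.

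Ccnd2, which also partners Cdk4 and Cdk6, went another way than Ccnd1 in WT MEFs. It was at 110.4 TPM in the WT control, 76.9 after 1 h, 111 after 2 h, 139 after 5 h and 146 after 8 h. The PERK -/- control had 77.7 TPM, and Tg gave 73.4, 58.5, 57.1 and 64.0 TPM at 1, 2, 5 and 8 h. It was therefore above its control at 5 and 8 h in WT (log2 0.34 and 0.40) and below it at both times in PERK -/- MEFs (-0.44 and -0.28), and 0 of the 4 count intervals contained 0. The difference was -0.78 after 5 h and -0.68 after 8 h (count intervals -0.98 to -0.50 and -0.92 to -0.47). With the trend of the changes on GC content removed, the WT values became 0.12 and 0.16, and with counts thinned to the smallest library they were 0.09 and 0.25. In NIH3T3 cells Ccnd2 was at 272 TPM in the control, 169 after 2 h and 294 after 7 h, so the 2 h library alone was low (log2 -0.69).

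Ccnd3 was lower than its control in all Tg libraries but 1. Its levels were 73.7, 54.4, 47.4, 47.1 and 48.6 TPM in WT MEFs, where the 4 treated libraries lay close together at log2 changes of -0.44 to -0.64. Those in PERK -/- MEFs were 89.7, 71.7, 54.3, 91.8 and 76.7 TPM. The 5 h library was at its control by TPM (log2 0.03) but below it by counts (-0.22, interval -0.39 to -0.04). The largest change was that of NIH3T3 cells, from 54.5 TPM to 23.9 after 2 h and 22.6 after 7 h, a 2.28-fold and a 2.41-fold lower level (count intervals -1.46 to -0.68 and -1.56 to -0.97).

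Within a library the balance of the 3 D-type cyclins does not depend on the scaling between libraries. In WT MEFs Ccnd1 made up 47.0% of their summed TPM in the control, 46.9% after 1 h, 35.2% after 2 h, 20.3% after 5 h and 21.02% after 8 h. Ccnd2 went from 31.8% and 31.1% in the control and at 1 h to 45.4%, 59.6% and 59.2%, and Ccnd3 stayed between 19.4% and 22.02%. By counts, the Clopper-Pearson interval of the Ccnd1 share was 46.2% to 49.5% in the control and 18.4% to 23.2% after 5 h. The leading D-type cyclin in WT MEFs was thus Ccnd1 in the control and at 1 h and Ccnd2 from 2 h on, while the sum over the 3 was 347 TPM in the control and 234 to 247 TPM under Tg.

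The PERK -/- control was different, as Ccnd3 had the largest share, 39.4%, and Ccnd1 the smallest, 26.4%. Under Tg the Ccnd1 share was 26.9%, 24.8%, 14.6% and 12.7% at 1, 2, 5 and 8 h, and Ccnd3 held 36.1%, 36.2%, 52.6% and 47.6%. Ccnd2 stayed between 32.7% and 39.7%, and led narrowly at 1 and 2 h (37.0% and 39.0%). Its count intervals overlapped those of Ccnd3 at both of these times. By counts the 5 h shares of Ccnd2 and Ccnd3 were 35.8% and 47.8%, and their intervals (33.0% to 38.7% and 44.9% to 50.8%) did not reach the TPM shares. The share of Ccnd1 was thus lower at 5 and 8 h than in the control in both MEF lines, with Ccnd2 in first place in WT and Ccnd3 in PERK -/- MEFs. In NIH3T3 cells Ccnd2 had 53.2%, 46.6% and 57.4% in the control and at 2 and 7 h, and Ccnd3 had 10.6%, 6.57% and 4.40%.

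**Figure D2:**
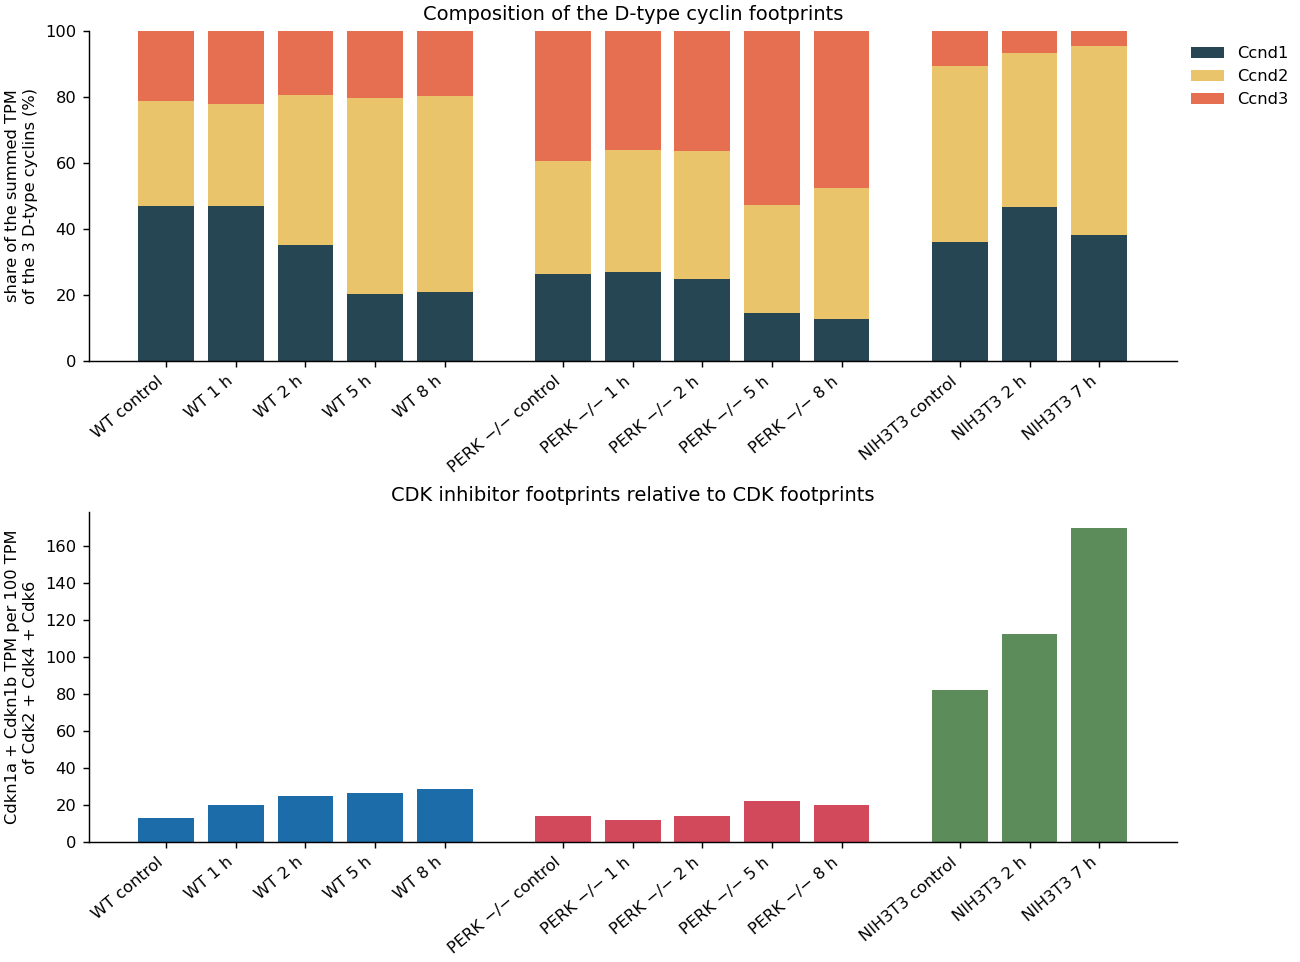
Top, share (%) of each D-type cyclin in the summed TPM of Ccnd1, Ccnd2 and Ccnd3 in each of the 13 libraries; bottom, summed TPM of Cdkn1a and Cdkn1b per 100 TPM of Cdk2, Cdk4 and Cdk6. The Ccnd1 share goes from 47.0% to 21.02% in WT and from 26.4% to 12.7% in PERK -/- MEFs by 8 h, and the inhibitor ratio goes from 12.8 to 28.6 in WT MEFs.

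The E-type cyclins, which activate Cdk2 late in G1, lay on opposite sides of their controls in the 2 MEF lines at 1 and 2 h. Ccne1 was at 23.98 TPM in the WT control and at 11.8, 14.1, 10.1 and 11.2 TPM at 1, 2, 5 and 8 h. For PERK -/- MEFs it was 22 TPM in the control, 32.1 after 1 h, 32.7 after 2 h, 10.2 after 5 h and 19.7 after 8 h. All 4 treated WT libraries were about 1.70-fold to 2.37-fold below their control, whereas the PERK -/- libraries at 1 and 2 h were 1.46-fold and 1.48-fold above theirs.

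Ccne2 followed Ccne1 at 1 and 2 h. Its levels in WT MEFs were 55.5 TPM in the control and 29.3, 26.6, 20.7 and 21.8 TPM under Tg. The PERK -/- values were 47.2 TPM in the control and 76.5, 82.0, 48.7 and 43.8 TPM. The log2 change in PERK -/- MEFs was 0.70 after 1 h and 0.80 after 2 h (count intervals 0.56 to 0.90 and 0.71 to 1.04), above those of 97.6% and 98.7% of expressed genes, and that in WT was -0.92 and -1.06. The genotype difference was 1.62, 1.86, 1.47 and 1.24 at 1, 2, 5 and 8 h, and every count interval lay above 0. For Ccne1 it was 1.57, 1.34 and 0.93 at 1, 2 and 8 h, while at 5 h it was 0.13, with an interval from -0.34 to 0.68.

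Ccne2 also had the lowest coding GC content of the 10 genes, 39.8%, against a median of 52.8% over the genes expressed in MEFs, and Ccne1 had 48.9%. With a smooth trend of the changes on GC content removed, Ccne2 was at 0.44 and 0.42 in PERK -/- MEFs at 1 and 2 h. In WT it was at -0.78, -1.03 and -0.89 at 2, 5 and 8 h. No setting tried brought the WT change at 1 h nearer 0 than -0.74. The sides of 0 were thus kept, but at 2 h the genotypes lay closer together than without the correction. In NIH3T3 cells Ccne1 was at 49.9, 28.8 and 35.7 TPM and Ccne2 at 20.8, 14.3 and 9.55 TPM in the control and at 2 and 7 h. Both were thus lower under Tg, as in WT MEFs, and Ccne2 was 2.18-fold lower at 7 h, while its change at 2 h was within counting error (count interval -0.87 to 0.01).

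Of the kinases, Cdk2 differed least from its control in the MEFs. It lay between 78.5 and 86.3 TPM in all 5 WT libraries, around 83.1 in the control, and between 82.4 and 110.5 TPM in PERK -/- MEFs, around 98.1. All WT count intervals contained 0, the PERK -/- interval at 2 h did not (-0.34 to -0.04), and those of the genotype difference contained 0 at all 4 times, with ends between -0.37 and 0.39. In NIH3T3 cells Cdk2 was at 72.6 TPM in the control and 73.4 after 2 h but at 38.3 after 7 h, 1.90-fold lower (count interval -1.06 to -0.63).

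Cdk4, which had a higher footprint level than Cdk6, was lower than its control in all 10 Tg libraries. The levels were 577, 414, 405, 452 and 459 TPM in WT MEFs, 738, 494, 455, 507 and 554 TPM in PERK -/- MEFs and 299.8, 160.4 and 177 TPM in NIH3T3 cells. The log2 change was -0.33 to -0.51 in WT, -0.41 to -0.70 in PERK -/- MEFs, and -0.90 and -0.76 in NIH3T3 cells, and each count interval lay below 0. In both MEF lines the lowest level was at 2 h. By counts the change in NIH3T3 cells at 2 h was smaller, -0.64.

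Cdk6 was at 20.3 TPM in the WT control and at 15.8, 13.5, 10.7 and 12.8 TPM under Tg. The WT count intervals lay below 0 from 2 h on, and that at 1 h contained 0 (-0.78 to 0.09). The PERK -/- levels were 18.8 TPM in the control, 22.5 after 1 h, 20.2 after 2 h, 8.58 after 5 h and 6.31 after 8 h, the last from 45 expected counts. At 1 and 2 h these values were near or above the control (count intervals -0.03 to 0.62 and -0.13 to 0.49), and at 8 h they were 2.98-fold below it, a difference of -0.91 from the WT change. In NIH3T3 cells Cdk6 was at 30.03, 22.7 and 39.0 TPM. Cdk4 and Cdk6 thus stood at a TPM ratio of 28.5 in the WT control and 35.9 after 8 h, and of 39.3 and 87.8 in PERK -/- MEFs.

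The inhibitors were the 2 members above their control at all 4 times in WT MEFs. Cdkn1a, a p53 target that binds CDK complexes, was at 50.3 TPM in the control and at 54.5, 80.3, 86.5 and 91.8 TPM at 1, 2, 5 and 8 h. The PERK -/- levels were 59.9 TPM untreated, 32.7 after 1 h, 28.6 after 2 h, 70.0 after 5 h and 49.0 after 8 h. The 2 early PERK -/- values were the lowest of the 10 MEF libraries. The log2 change was 0.12, 0.67, 0.78 and 0.87 in WT, with count intervals above 0 from 2 h on, and -0.87 and -1.06 in PERK -/- MEFs at 1 and 2 h (count intervals -1.17 to -0.51 and -1.30 to -0.68). The genotype difference was -0.99, -1.74, -0.56 and -1.16, and all 4 intervals lay below 0.

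Cdkn1a had the highest coding GC content of the 10 genes, 61.8%, and with the GC trend removed its change was 0.40 and 0.44 in WT at 5 and 8 h and -0.74 in PERK -/- MEFs at 2 h. NIH3T3 cells had 282 TPM of Cdkn1a in the control, 239.6 after 2 h and 376 after 7 h. The 7 h library was 1.34-fold above the control (count interval 0.30 to 0.54), and the 2 h library did not differ beyond counting error.

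Cdkn1b, which holds back Cdk2 in resting cells, was at 36.8 TPM in the WT control and at 48.7, 43.3, 56.8 and 67.5 TPM under Tg, of which the 2 h level was within counting error of the control. Those in PERK -/- MEFs were 57.5, 38.8, 50.3, 65.3 and 86.3 TPM. At 8 h both lines were above their controls, up 1.83-fold in WT and 1.5-fold in PERK -/-, and the difference of the changes had an interval from -0.64 to 0.04. At 1 h the lines went apart, with log2 changes of 0.41 and -0.57 (difference -0.97, count interval -1.39 to -0.52). At 2 h the intervals of both lines contained 0, as did that of the difference (-0.83 to 0.11). In NIH3T3 cells Cdkn1b lay between 49.3 and 56.1 TPM.

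The ratio of the 2 inhibitors to the 3 kinases was also taken within each library. Cdk4 made up most of the kinase sum, 577 of 681 TPM in the WT control. Coding GC content was 61.8% in Cdkn1a and 58.7% in Cdkn1b against 54.3% in Cdk4, and the ratio was not corrected for it or given an interval. There were 12.8 TPM of inhibitors per 100 TPM of kinases in the WT control and 20.02, 24.9, 26.4 and 28.6 at 1, 2, 5 and 8 h. The ratio in PERK -/- MEFs was 13.7 in the control, 11.8 and 14.2 at 1 and 2 h and 22.04 and 20.2 at 5 and 8 h. It was thus above the control at every time in WT, and in PERK -/- MEFs it was close to the control at 1 and 2 h and above it at 5 and 8 h. NIH3T3 cells had 82.3 in the control, 112.7 after 2 h and 169.9 after 7 h.

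**Figure D3:**
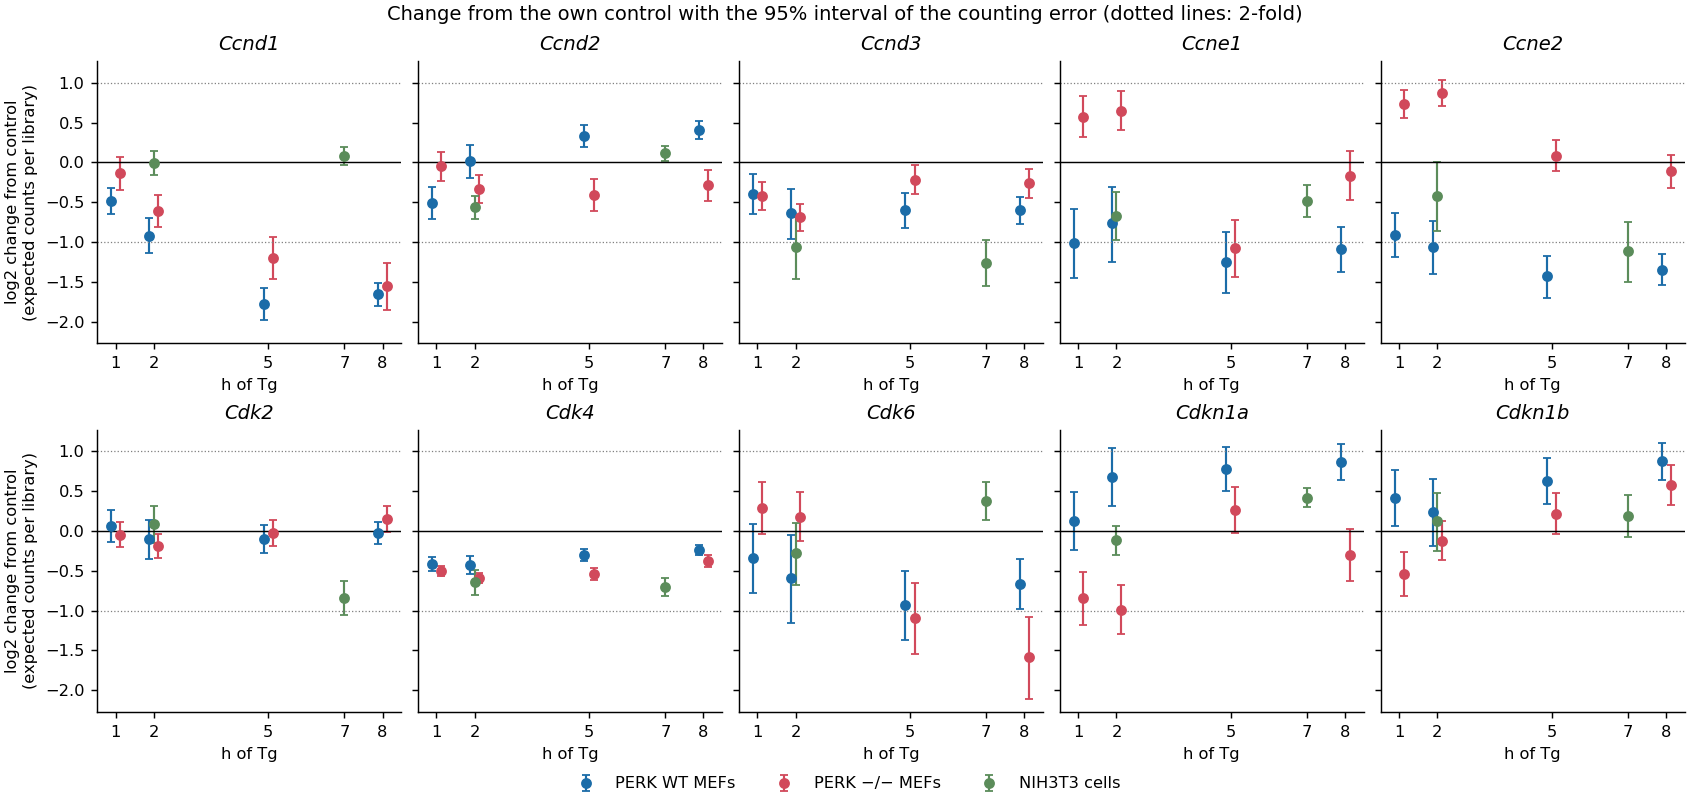
Log2 change of the expected counts per library total against the own control for each gene and hours of Tg, with bars for the 95% exact interval of the counting error, in PERK WT MEFs (blue), PERK -/- MEFs (red) and NIH3T3 cells (green); dotted lines mark 2-fold. Blue and red points lie on opposite sides of 0 for Ccne1 and Ccne2 at 1 and 2 h, and Cdk2 lies near 0 in both MEF lines.

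Counted over the group, the 2-fold limit of the study was passed downwards in 8 of 40 pairs of a gene and a time in WT MEFs, 6 of 40 in PERK -/- MEFs and 3 of 20 in NIH3T3 cells, and upwards in 0 of all pairs. In WT MEFs 1 of the 10 genes was at least 2-fold lower at 1 h (Ccne1, where 2.29% of all expressed genes were), 1 after 2 h (Ccne2, 4.01%), 3 after 5 h (3.55%) and the same 3 after 8 h (3.87%), namely Ccnd1, Ccne1 and Ccne2. The share of expressed genes at least 2-fold higher was 4.33%, 5.66%, 5.86% and 6.45% at these times. In PERK -/- MEFs 0 of 10 genes were that much lower at 1 h (3.38% of all), 1 after 2 h (Cdkn1a, 5.78%), 3 after 5 h (Ccnd1, Ccne1 and Cdk6, 4.77%) and 2 after 8 h (Ccnd1 and Cdk6, 2.73%). The shares of higher genes there were 0.719%, 0.623%, 3.26% and 3.28%. In NIH3T3 cells 1 gene was lower at 2 h (Ccnd3, 3.76%) and 2 after 7 h (Ccnd3 and Ccne2, 8.06%), with 5.76% and 7.01% of all genes higher. Of these 17 pairs, 11 kept the 2-fold call under all 9 other settings, of which a lower floor and other filters could not change it. Ccne1 in WT at 1 and 8 h, Ccne2 in WT at 2 and 8 h and in NIH3T3 cells at 7 h, and Cdkn1a in PERK -/- MEFs at 2 h fell short of 2-fold under at least 1, with the GC trend removed at -0.97, -0.997, -0.78 and -0.89 for the first 4 and -0.74 for Cdkn1a. Pairs that passed 2-fold under at least 1 other setting numbered 6, among them Ccnd3 in WT at 5 and 8 h (-1.02 and -1.03 with the GC trend removed).

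The median log2 change of the 10 genes was -0.46, -0.55, -0.50 and -0.47 at 1, 2, 5 and 8 h in WT MEFs, against medians between 0.00 and 0.01 over all expressed genes. In PERK -/- MEFs it was -0.14, -0.33, -0.22 and -0.25, against -0.06, -0.11, 0.00 and 0.04, and in NIH3T3 cells -0.47 and -0.20 against -0.13 and 0.00. Dividing by TMM factors moved the median of all genes in PERK -/- MEFs at 2 h by 0.11 to 0.00. As a yardstick in place of replicates, the 5 and 8 h libraries of WT MEFs differed by at most 0.26 in any of the 10 genes, and 0 of 10 count intervals lay off 0. Between 5 and 8 h in PERK -/- MEFs the intervals of 7 of 10 genes lay off 0, with the largest gap, 0.95, in Ccne1. Between 1 and 2 h the largest gap was 0.56 in WT and 0.52 in PERK -/- MEFs, with 3 and 7 of 10 intervals off 0. Between 2 and 7 h in NIH3T3 cells it was 0.94, with 5 of 10. The genotype difference had intervals off 0 for 7 of 10 genes at each of the 4 times. These intervals were computed for the 10 genes only, so no share of all expressed genes stands beside their counts.

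**Figure D4:**
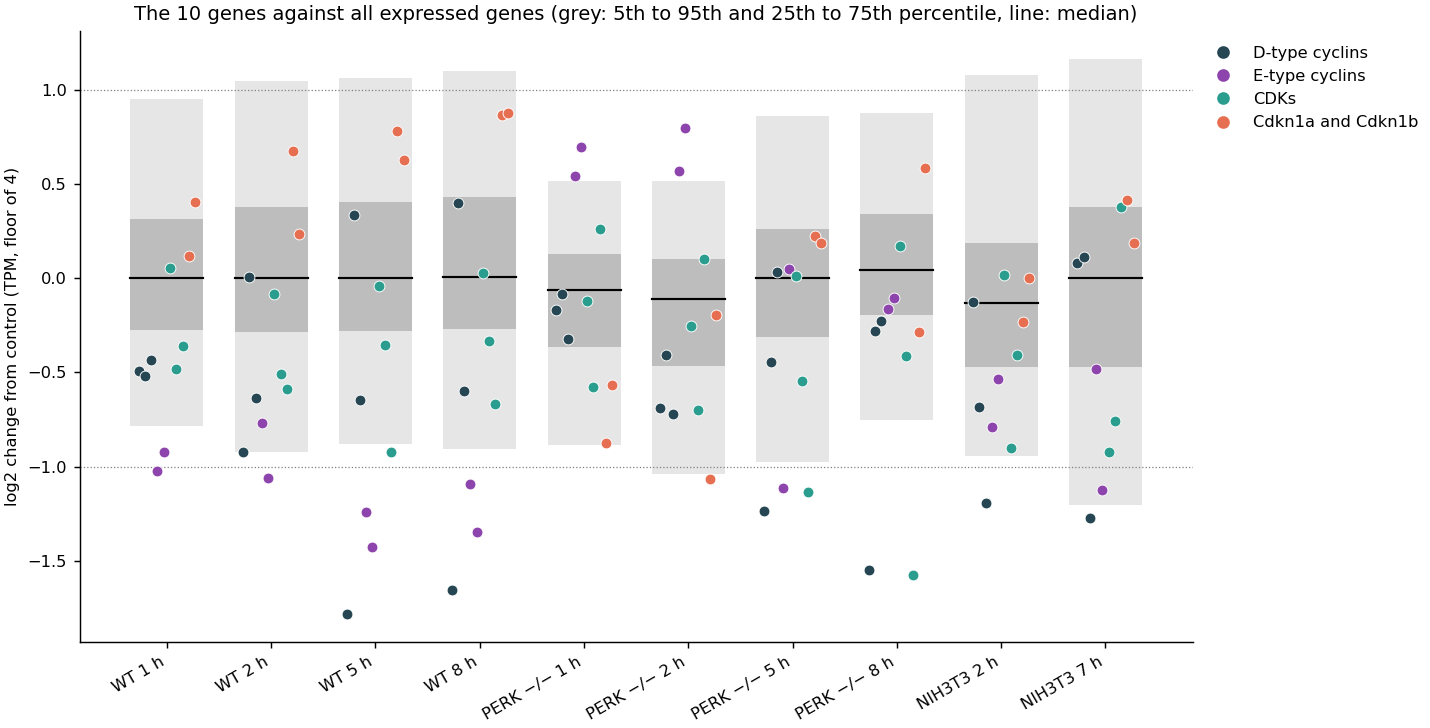
Log2 change from the own control (TPM, floor of 4) of the 10 genes, coloured by role, against all expressed genes (light grey, 5th to 95th percentile; dark grey, 25th to 75th; line, median) in each of the 10 Tg libraries. E-type cyclins lie below the grey bars in WT MEFs at 5 and 8 h and above them in PERK -/- MEFs at 1 and 2 h; Ccnd1 lies below them at 5 and 8 h in both lines.

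Other genes of the pathway came from lists chosen by role, some of which share genes. The values of these lists were not corrected for GC content. Among 13 genes of the Rb and E2F families, at most 1 per library was at least 2-fold lower and at most 1 higher, where 2.29% to 8.06% of all expressed genes were lower and 0.623% to 7.01% higher. E2f8, a repressor among the E2F factors, was 2.30-fold lower in WT MEFs at 8 h (10.6 to 4.60 TPM). In PERK -/- MEFs at 5 h E2f3, an activator, was 3.50-fold lower (23.5 to 6.72 TPM) and Rb1 2.45-fold higher (4.68 to 11.5 TPM). In NIH3T3 cells at 7 h the E2F partners Tfdp1 and Tfdp2 were 2.32-fold lower and 2.24-fold higher, the latter not 2-fold by counts (log2 0.89).

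The other 6 CDK inhibitors were all below their control in PERK -/- MEFs at 1 and 2 h, with medians of -0.81 and -0.97 against -0.06 and -0.11 over all expressed genes. At least 2-fold lower were 2 and 3 of them, where 3.38% and 5.78% of all genes were. With the GC trend removed those shares of all genes were 2.20% and 3.35%, but the 6 inhibitors were not recomputed in this way. The share of all genes below their control was not computed. Cdkn2b (p15), an inhibitor of Cdk4 and Cdk6, was at 63.0 TPM in the PERK -/- control, 25.4 after 1 h, 22.1 after 2 h, 47.6 after 5 h and 42.1 after 8 h. Cdkn1c (p57) was at 15.01, 8.59, 4.73, 14.9 and 27.8 TPM and Cdkn2d (p19) was at 64.5, 26.2, 28.7, 86.1 and 74.5 TPM in the same libraries. In WT MEFs the list's median was 0.12, 0.39, 0.40 and 0.49, with 0 genes past 2-fold either way. Of all expressed genes there, 2.29% to 4.01% were at least 2-fold lower and 4.33% to 6.45% higher. Cdkn2a, the p16 and ARF gene, was at 1274 TPM in the WT control and 1709.8 TPM in the PERK -/- control, above Cdk4 in both, and was listed at 0 in the 3 NIH3T3 libraries, as was Cdkn2b. A count of 0 allows up to 0.27 CPM (counts scaled to the library) in the NIH3T3 control. There 3 of the 6 passed the limit on low values.

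Of 13 upstream genes, 12 passed the limit on low values in MEFs, and these 12 were below their control in PERK -/- MEFs at 2 and 5 h, 5 and 3 of them at least 2-fold, where 5.78% and 4.77% of all genes were. Their medians were -0.54 and -0.52, against -0.11 and 0.00 over all genes. Myc, a driver of growth and of Ccnd2, was at 90.4 TPM in the PERK -/- control, 104.5 after 1 h and 38.3, 35.7 and 40.2 at 2, 5 and 8 h. In WT MEFs Myc went from 160.7 TPM to 263, 253, 235 and 224.5, and in NIH3T3 cells from 224.5 to 484 and 852. Fosl1, part of the AP-1 factor that acts on Ccnd1, was at 47.7 TPM in the PERK -/- control and 11.8 after 8 h, 4.04-fold lower, and at 102 and 54.7 TPM in WT. Jun was 3.17-fold lower in PERK -/- MEFs at 5 h, Pdgfrb 2.71-fold lower there at 2 h, and in NIH3T3 cells at 7 h Ets2 was 3.76-fold higher and Akt1 3.12-fold lower.

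Among 16 other cyclins measured in MEFs, 2, 4, 3 and 2 were at least 2-fold lower in WT at 1, 2, 5 and 8 h, where 2.29%, 4.01%, 3.55% and 3.87% of all genes were. In PERK -/- MEFs 0, 1, 1 and 0 were lower, where 3.38%, 5.78%, 4.77% and 2.73% of all genes were, and 0, 1, 2 and 1 were higher, where 0.719%, 0.623%, 3.26% and 3.28% were. Of 16 activation and turnover genes, 0 in PERK -/- and at most 1 each way in WT MEFs passed 2-fold in any library, where 2.29% to 5.78% of all genes were lower and 0.623% to 6.45% higher, among them Skp1a, part of the SCF ubiquitin ligase, at 687 TPM in the WT control and 303 after 5 h. Cryab, a small heat shock protein, was 3.33-fold higher in WT at 8 h, from 27 to 84 counts. Skp2, the SCF subunit that targets Cdkn1b, was 3.04-fold lower in NIH3T3 cells at 7 h. Of the later cyclins, Ccna2, which acts in S phase, was at 226 TPM in the WT control and 153, 129, 129 and 136 TPM under Tg, and lay between 229 and 262 TPM in all PERK -/- libraries. In NIH3T3 cells at 7 h Ccna2 was 2.92-fold, Ccnb2 4.41-fold and Cdk1 2.44-fold lower, and 5 of 15 other cyclins were at least 2-fold lower, where 8.06% of all genes were. Ccnl2 was 3.40-fold higher by TPM in PERK -/- MEFs at 5 h but not 2-fold by counts (log2 0.66, interval 0.38 to 0.94). Ccnyl1 was 3.17-fold lower there, Ccnl1 3.63-fold higher in NIH3T3 cells at 2 h, Cdk16 2.58-fold higher in WT at 2 h, Cdk8 2.22-fold lower in WT at 5 h and Cdk5 2.55-fold lower in NIH3T3 cells at 7 h.

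Of 16 targets of p53, the factor that acts on Cdkn1a, 5, 4, 3 and 3 were at least 2-fold higher and 2 at each time lower in WT MEFs at 1, 2, 5 and 8 h, where 4.33% to 6.45% of all genes were higher and 2.29% to 4.01% lower. In PERK -/- MEFs 0 were higher at any time, where 0.719%, 0.623%, 3.26% and 3.28% of all genes were, and 3, 3, 2 and 1 were lower, where 2.73% to 5.78% were. Gadd45a, a growth arrest gene, went from 13.1 TPM to 24.2, 130.2, 184 and 174 in WT MEFs and from 20.5 to 7.76, 5.38, 1.10 and 16.2 in PERK -/- MEFs. Sesn2 was 9.12-fold and Bbc3 3.82-fold higher in WT at 2 and 5 h. The target Ccng1 went the other way, from 36.1 TPM to 15.3, 9.22, 8.90 and 7.68 in WT, and in NIH3T3 cells at 7 h Ei24 was 5.00-fold lower and Trp53inp1, with 6 counts and its level raised to the floor, 3.91-fold lower. Gadd45a, Sesn2 and Bbc3 are also known targets of the ATF4 and CHOP branch of the ER stress response.

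The genes whose log2 changes over the 10 Tg libraries were most like those of Ccnd1, out of 6700, were Specc1 (Pearson r = 0.96), Prss23 (0.95), Prkaa1 (0.94), Tardbp (0.94) and Hbegf (0.93). The libraries share controls and r does not compare sizes, so that Prkaa1 lay above its control in all 10 libraries and Hbegf was at a log2 change of 1.88 in NIH3T3 cells at 2 h. Within the group Cdk6 was the most like Ccnd1 (r = 0.81, rank 109 among the 6700 genes) and Cdk4 the least (r = -0.83). For Cdkn1a they were Ranbp10 and Trip6 (0.98 each) and Mrps28, Zfpl1 and Sox4 (0.97 each). Cdkn1b had r = 0.77 with Cdkn1a (rank 667), and Ccne1 and Ccne2 had r = -0.87 and -0.92.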

How the data were processed

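Ribosome footprints of 13 libraries were analysed, 5 each of PERK WT and PERK -/- MEFs and 3 of NIH3T3 cells. Reads were filtered for rRNA and tRNA with STAR, aligned with Bowtie2 to clipped RefSeq coding sequences of mm10 of at least 100 nt, and quantified with RSEM by the authors, with versions not given in the sources used here. In the deposited files, expected counts from RSEM stand as whole numbers for each gene, with no scaling. TPM values were deposited by the authors as RSEM gave them, scaled within each library.

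Each Tg library was set against its own control, as log2 of TPM with values under 4 raised to 4, over genes that averaged 2 TPM or more. Counts with at least 2-fold change were set beside the share of all expressed genes. Intervals were exact (Clopper-Pearson) for a ratio of counts or a share, and from the Poisson variance of the log ratio for genotype differences, with 95% confidence. The 10 genes and all lists were chosen with earlier results of these data known. All 10 genes were named, and of the lists those changed at least 2-fold in any library with at least 50 counts in 1 of the 2 libraries, at most 6 per list by size, plus Cdkn2a, the controls of genotype and cell type and, for Ccnd1 and Cdkn1a, the 5 genes with the highest Pearson r among genes with at least 100 counts in each control. Cdkn2a was named after its values were seen.

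Other settings tried were raising values to 1 TPM only, adding 1 TPM with no floor, a filter at 5 TPM or none, limits of 1.5-fold and 3-fold, edgeR TMM factors, DESeq2 size factors, counts in place of TPM, counts thinned to the smallest library of the table and removal of a lowess trend (fraction 0.3) on coding GC content (GENCODE, GRCm38, the assembly of mm10), which 96.0% of the genes expressed in MEFs had. The exact interval of a count ratio was tested on simulated Poisson counts, and the 2-fold calls on a made table with known changes. The other calculations were not tested in this way. The scaling factors came from edgeR 4.0.16 and DESeq2 1.42.0 (R 4.3.3). Everything else ran in Python 3.11.15, using pandas 2.3.3, numpy 2.4.6, statsmodels 0.14.6, scipy 1.17.1 and, for the plots, matplotlib 3.10.9.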

Additional observations from a re-analysis of the deposited data

Results flagged for a closer look

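In 6 of the 10 genes the changes from the own control lay on 1 side of 0 in both PERK -/- libraries of a pair of neighbouring times and on the other side in both WT libraries. This rule set no limit on size, so changes within counting error also counted, and the libraries of a genotype share 1 control. It was applied to the 10 genes only, so no share of all expressed genes stands beside the count. The count of 6 therefore cannot be read as a trait of these genes. The values below are the mean log2 change in PERK -/- MEFs minus that in WT MEFs. They were not corrected for GC content, and with the GC trend removed Ccne2 lay nearer 0 in both lines at 2 h. With 1 library per condition these differences were not tested.

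At 1 and 2 h the difference was 1.74 for Ccne2 and 1.45 for Ccne1, both above control in PERK -/- and below it in WT MEFs. It was 0.66 for Cdk6 in the same sense, although Cdk6 crossed 0 under 1 of the other settings in WT at 1 h and under 1 in PERK -/- MEFs at 2 h. The inhibitors went the opposite way, with -1.36 for Cdkn1a and -0.70 for Cdkn1b, whose 2 h difference alone was within counting error (-0.83 to 0.11). Under 1 setting each, the change of Cdkn1a in WT at 1 h and that of Cdkn1b in PERK -/- MEFs at 2 h crossed 0. At 5 and 8 h the difference was -0.73 for Ccnd2, which was above control in WT and below it in PERK -/- MEFs.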

How the results depend on the processing

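No paired analysis was possible because each condition was 1 library, and for the same reason no replicate could be left out. Of 900 recomputed changes of single genes, 843 stayed within their counting error and 57 moved, 26 of them with the GC trend removed, and no change of at least 2-fold turned its direction under any setting tried. The floor of 1 TPM, the filter at 5 TPM and no filter could not change these values or their medians. The lowest TPM of the 10 genes was 6.31 and their lowest mean in a table was 14.9, so part of the unmoved results was fixed in advance. With a 1.5-fold limit, 17 pairs of a gene and a time were lower and 5 higher in WT MEFs, 10 lower and 3 higher in PERK -/- MEFs, and 8 lower in NIH3T3 cells. With a 3-fold limit 2 were lower in WT MEFs, 0 in PERK -/- MEFs and 0 in NIH3T3 cells. The shares of all expressed genes past these 2 limits were not computed. Under the other settings the lower pairs numbered 7 to 11 in WT, 5 to 6 in PERK -/- MEFs and 2 to 4 in NIH3T3 cells, and 0 were higher. Of all genes kept under these settings, 1.07% to 5.56% per library were at least 2-fold lower in WT. The shares were 1.27% to 9.69% in PERK -/- MEFs and 1.70% to 13.4% in NIH3T3 cells. Over all libraries 0.290% to 10.4% were higher. The median of the 10 genes moved beyond counting error in 1 of 90 cases, WT at 5 h with the GC trend removed, to -0.75. Cdk4, the gene with the most counts, moved under TMM factors in 6 libraries by at most 0.14. The smallest libraries, WT at 1 and 2 h and NIH3T3 at 2 h, limit the weakly read genes, as Ccne1 and Cdk6 had 44 and 33 counts in WT at 2 h.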
